A study of Mus musculus with 8 samples.

Results

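The genes described here encode the working parts of the lysosome: its proteases, its sugar- and lipid-degrading enzymes, its membrane proteins and the proton pump that acidifies it. They were chosen as 27 named lysosomal genes plus every gene on the array whose symbol begins with Atp6v or Atp6ap, which added 15 genes of the proton pump. All 42 had a probe set with a single gene symbol, and all 42 were above the detection floor on each of the 8 arrays. They are 42 of the 6128 genes tested and of the 8251 genes on the array. The rule reads gene symbols only, but the members were chosen with earlier results of these data known.

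The samples were total RNA of mouse epididymal white fat on 8 Affymetrix U74Av2 arrays, 1 array per group. Wild type and Ppara knockout (KO) mice each gave a control array, which received no drug in wild type per the labels. Each genotype also gave an array at 8 hours after 30 nmol of CL 316243 and arrays at 3 days and at 6 days of 3 nmol per hour; the knockout labels write only CL. CL 316243 is an agonist of the β3-adrenergic receptor, through which fat cells are driven to release fatty acids, and Ppara encodes a nuclear receptor that switches on fatty acid oxidation genes. The dose differs between 8 hours and the later times, so time and dose cannot be told apart. The labels give neither strain, age, vehicle, route nor the allele of the knockout, and they do not say whether an array held 1 animal or a pool. The p-values below come from a fit that treats the arrays of both genotypes as repeats of a time. They therefore measure spread as the departure of the genotypes from a shared course. That spread mixes variation from array to array, which may be technical, with any response that differs by genotype.

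Lysosomes digest material that a cell takes up or recycles from itself. The proton pump, or V-ATPase, uses ATP in its cytosolic V1 sector to drive protons through its membrane V0 sector, and the low pH lets cathepsins, glycosidases and lipases work. Many lysosomal genes carry in their promoters a palindromic element called CLEAR, which the transcription factors TFEB and TFE3 bind. In fat, macrophages are rich in lysosomes and use lysosomal acid lipase to digest lipid they take up, and fat cells have lysosomes as well.

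Promoters were searched because the members belong to a family of genes for which a shared element is known. RefSeq windows of GRCm38.p6, from 250 bases before to 50 bases after each gene start, were at hand for 32 of the 42 members. Ctse, Ctsb, Ctsh, Asah1, Npc1, Atp6v0a2, Atp6v1b2, Atp6v1c1, Atp6v1g1 and Atp6v1h had none. The E-box core CACGTG, which reads the same on both strands, stood in 11 of the 32 windows (34.4%), against 8.09% of all 27025 genes with a window. The 8-letter CLEAR core TCACGTGA, also the same on both strands and always holding a CACGTG, stood in 5 of 32 (15.6%), against 1.12% of all genes. The Ctsa window held a further TCACGTGA that starts at position 5 after the gene start, beyond the stretch printed. Stretches of the 5 are printed below, with the CLEAR core in capitals and each read 5′ to 3′ on the strand of its gene. They are Ctsa at chr2:164833713-164833772 on the plus strand, Ctsd at chr7:142387828-142387946 on the minus strand, Atp6v1a at chr16:44139260-44139411 on the minus strand, Atp6v0d1 at chr8:105566050-105566079 on the minus strand and Atp6v0e at chr17:26676387-26676416 on the plus strand.
Ctsa: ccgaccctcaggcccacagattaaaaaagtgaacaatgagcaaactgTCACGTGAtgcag
Ctsd: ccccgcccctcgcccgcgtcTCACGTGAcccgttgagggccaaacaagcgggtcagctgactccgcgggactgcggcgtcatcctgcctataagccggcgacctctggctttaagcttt
Atp6v1a: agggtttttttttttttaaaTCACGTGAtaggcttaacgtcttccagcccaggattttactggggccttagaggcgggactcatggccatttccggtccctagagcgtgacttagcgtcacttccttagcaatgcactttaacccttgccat
Atp6v0d1: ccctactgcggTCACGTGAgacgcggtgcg
Atp6v0e: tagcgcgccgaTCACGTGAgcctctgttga

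The promoter of Lamp1, the most used marker protein of the lysosomal membrane, is shown for its 4 copies of CACGTG, and it was chosen after its sequence had been seen. It lies at chr8:13159081-13159160 on the plus strand, with the CACGTG copies in capitals.
Lamp1: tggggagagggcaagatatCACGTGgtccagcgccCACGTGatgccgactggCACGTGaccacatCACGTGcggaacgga

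Responses were set beside the motifs. At 3 days against control the 5 genes with TCACGTGA had a median log2 change of 0.84, with values from -0.00 (Atp6v0e) to 1.30 (Ctsa), and the other searched members had a median of 0.69. The 11 with CACGTG had a median of 0.59 and the members without it 0.85. The core of the site of PU.1, a factor of macrophages and other myeloid cells, is GAGGAAGT and was searched on both strands. It stood in 3 of 32 windows (9.38%, against 3.69% of all genes), those of Ctsc, Ctss and Gusb, whose median was 1.24. The cyclic AMP response element TGACGTCA, the same on both strands, stood in 1 (3.12%, against 2.03%), that of Gusb. These matches describe letters in a window and no binding was measured.

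Ppara itself read 395, 795, 604 and 1843 in wild type in the order control, 8 hours, 3 days and 6 days, and 214, 254, 292 and 336 in knockout, so its intensity was lower in knockout at each time. Where its probes lie relative to the deleted part was not analysed here. Checked against the tissue label, all 12 measured adipocyte genes were above the floor on all 8 arrays. Both control arrays stood apart the most for genes of other organs, and some treated arrays also read high. The summed intensity of 11 pancreas markers was 84616 on the wild type control and 24848 on the knockout array at 8 hours. It was from 4589 to 6254 on the other arrays. The summed intensity of 6 epididymis and testis markers was 126616 on the knockout control and 17249 on the knockout array at 8 hours. It was 10923 on the wild type array at 6 days and from 1992 to 5567 on the others. The part of these signals in the values of the treated arrays was not tested. Calls are therefore given below with and without each control.

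At 8 hours, 2 of the 42 genes rose, Lipa and Scarb2, and 1 fell, Atp6v0e2. The test was limma on log2 intensity over all 8 arrays, with terms for genotype and time and Benjamini-Hochberg adjustment over the 6128 genes at a threshold of 0.05. The background was 6.49% of all genes rising and 8.29% falling, so 4.76% and 2.38% of the members were no more than the array gave as a whole. At an unadjusted p under 0.05, 6 members were higher and 3 lower (15.7% and 16.6% of all genes). The median log2 change of the 42 was 0.19, and that of all genes -0.02. That median was -0.0062 without the wild type array at 8 hours, 0.39 without the knockout array at 8 hours, 0.08 with the knockout control left out and 0.41 with that of wild type left out.

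At 3 days the 42 genes as a set read higher than control but no single member passed. Further lysosomal genes outside the set had 3-day medians near 0, at 0.04 for 22 hydrolases and 0.07 for 22 membrane and sorting genes. With limma 0 members rose and 0 fell, against 0.441% and 0.702% of all genes, while at an unadjusted p under 0.05 15 members were higher and 1 lower (10.1% and 11.5% of all genes). The median log2 change was 0.66, with 36 of 42 above 0, and that of all genes was -0.03, with 47.8% above 0. Omitting the knockout control lowered the 3-day median of the 42 to 0.44, and omitting that of wild type raised it to 0.81. Both 3-day arrays lay above both controls for 28 of the 42, which 24% of all genes did. At 6 days 0 rose and 0 fell, against 0.228% and 0.604% of all genes, and 9 were higher and 1 lower at an unadjusted p under 0.05 (8.08% and 10.2% of all genes). The median at 6 days was 0.39 over both genotypes, 0.97 without the wild type array at 6 days and -0.09 without the knockout array at 6 days. Omitting the knockout control gave a 6-day median of 0.27, and omitting that of wild type gave 0.61. In whole fat, a larger share of lysosome-rich cells and more lysosomal RNA per cell cannot be told apart.

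**Figure D1:**
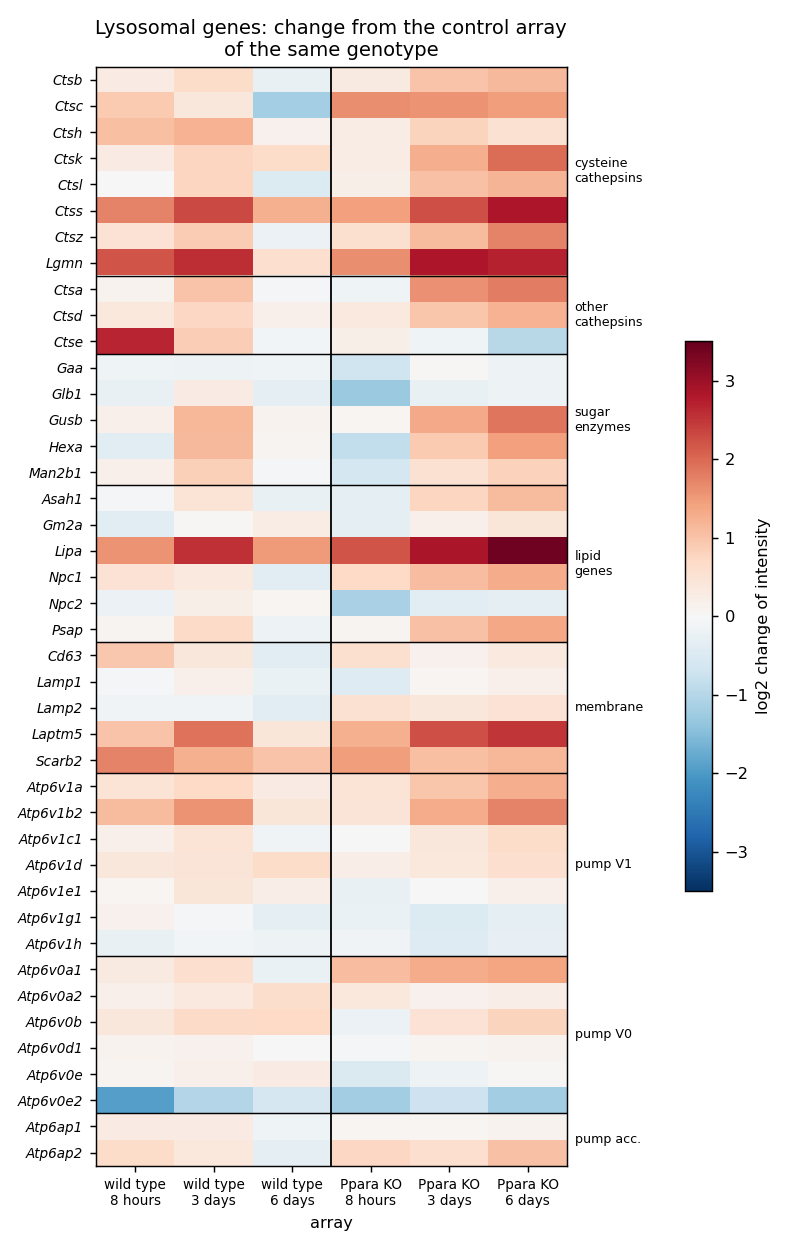
Each row is 1 of the 42 lysosomal genes, grouped by role, and each column 1 of the 6 treated arrays; colour is the log2 intensity change against the control array of the same genotype. The 3-day columns are mostly above 0 in both genotypes (37 of 42 genes in wild type, 35 in knockout), and at 6 days 23 are below 0 in wild type while 35 are above 0 in knockout.

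Set against the control of its own genotype, each treated array gives a value with no replicate and no test. On the wild type array at 8 hours 8 members were at least 2-fold higher and 1 lower, against 8.11% and 7.91% of all genes. At 3 days 9 were higher (21.4%) and 1 lower, against 5.6% and 5.73%. At 6 days 3 were higher, Ctss, Lipa and Scarb2, and 1 was lower, Ctsc, against 3.56% and 4.06%. Wild type fat thus held most 2-fold members at 8 hours and 3 days, and few at 6 days. In knockout fat the counts climbed to the last time. They were 7 higher and 3 lower at 8 hours (11.2% and 11% of all genes), and 15 higher and 0 lower at 3 days (8.65% and 6.98%). At 6 days 21 of 42 members, or 50%, were higher and 1 was lower (9.46% and 8.16%).

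The 8 cysteine proteases, which are the cathepsins B, C, H, K, L, S and Z and legumain, cleave proteins within the lysosome. By their brightest probe sets, all 8 had a positive log2 change at 8 hours, 3 days and 6 days. The medians were 0.59, 1.002 and 0.61, but none of the 8 passed the test. The 6-day values average arrays that differed: the median of the 8 was -0.03 in wild type, where Ctsb, Ctsc, Ctsl and Ctsz were below control, and 1.61 in knockout. Ctss, encoding cathepsin S, the protease that trims the invariant chain of MHC class II, read 2905, 9632, 14357 and 6819 in wild type and 3622, 9777, 17178 and 25851 in knockout. All 6 treated arrays lay above both controls, and the genotypes parted only at 6 days. Its log2 change was 1.58 ± 0.47 (SE) at 8 hours and 2.28 ± 0.47 at 3 days (limma adjusted p 0.0738 and 0.0831).

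Lgmn encodes legumain, which cleaves after asparagine and matures other cathepsins. Its intensity was 1360, 6263, 8146 and 2027 in wild type and 1981, 6119, 14000 and 12819 in knockout. The wild type array at 6 days was back near the controls, and the knockout array at 6 days was not. Its change was 1.92 ± 0.61 at 8 hours and 2.70 ± 0.61 at 3 days (limma adjusted p 0.0867 and 0.0906). Ctsk, encoding a collagen-degrading cathepsin best known from osteoclasts, was dim, at 351, 430, 590 and 551 in wild type and 344, 413, 827 and 1331 in knockout. Its change was largest at 6 days, at 1.30 ± 0.35 (adjusted p 0.144). By their brightest probe sets, the other 5 had 3-day changes from 0.83 (Ctsb) to 1.003 (Ctsh). Further probe sets of Ctsb above the floor on all 8 arrays had mean log2 changes of 1.705 and 1.327 at 3 days. At 8 hours these had -0.25 and -0.05. Ctsc, which activates the serine proteases of granulocytes, was highest at 8 hours in both genotypes, at 5771 and 7243, and on the wild type array it read 1359 at 6 days against 3076 in the control.

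The aspartic cathepsins and the carboxypeptidase cathepsin A make 3 genes with medians of 0.35, 0.85 and 0.70 at the successive times. Ctsd, encoding cathepsin D, the main aspartic protease of lysosomes, read 16167, 20906, 26696 and 18290 in wild type and 14991, 18830, 29412 and 34782 in knockout. All 6 treated arrays exceeded both controls, and the 3-day change was 0.85 ± 0.30 (adjusted p 0.185). Ctsa, whose product also shields lysosomal β-galactosidase and neuraminidase, read 2201, 2417, 4389 and 2144 in wild type and 2323, 2111, 7092 and 7965 in knockout. It was at control level at 8 hours, with a change of -0.00 ± 0.49, and stood at 1.30 ± 0.49 at 3 days (adjusted p 0.206).

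Ctse, encoding the intracellular aspartic protease cathepsin E, gave no single answer. Its brightest probe set read 498, 3173, 903 and 465 in wild type and 1809, 2090, 1618 and 927 in knockout, so its controls differed by 1.86 on the log2 scale. Another probe set of Ctse read 145, 541, 621 and 273 in wild type and 229, 675, 1048 and 1240 in knockout. The first had a mean log2 change of 0.35 at 3 days and the second 2.03. Of the 10 members with several probe sets above the floor on at least 2 arrays, Ctse alone had probe sets more than 1 log2 unit apart in a change.

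The 5 genes of sugar-cleaving enzymes read mostly lower than control at 8 hours and higher at 3 days. They had a median change of -0.42 at 8 hours, with 4 below 0, and of 0.69 at 3 days, with 4 above 0. Hexa, encoding the α subunit of β-hexosaminidase, the enzyme lost in Tay-Sachs disease, read 2571, 1988, 5680 and 2759 in wild type and 3104, 1714, 5896 and 8394 in knockout. Both arrays were lower at 8 hours than in the controls and higher at 3 days. From 8 hours to 3 days its change was 1.65 ± 0.44 (adjusted p 0.0935), the lowest adjusted p of the 42 for that step.

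Gusb encodes β-glucuronidase, whose promoter window held both the PU.1 core and the cyclic AMP element. It read 1172, 1314, 2626 and 1274 in wild type and 1440, 1499, 3595 and 5285 in knockout. Its 3-day change was 1.24 ± 0.47 and its 8-hour change 0.11 ± 0.47 (adjusted p 0.205 and 0.91). Man2b1, encoding lysosomal α-mannosidase, read 2950, 3315, 5286 and 2821 in wild type and 3802, 2498, 5551 and 6602 in knockout. All 3 of these genes were near the control level at 6 days in wild type and at their highest there in knockout. Gaa, the acid α-glucosidase that degrades glycogen, lay between 1756 and 2987 on all arrays. Glb1, the lysosomal β-galactosidase, was brightest on the knockout control, at 844, where the epididymis markers were high; their part in that value was not tested.

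Across all members the step from 8 hours to 3 days had a median of 0.40, with 33 of 42 above 0. For all genes the median was 0.008, with 51% above 0. Further lysosomal genes outside the set had medians of 0.65 (22 hydrolases) and 0.25 (22 membrane and sorting genes). In limma 0 members rose and 0 fell for this step, against 1.99% and 2.42% of all genes, and 4 were higher and 0 lower at an unadjusted p under 0.05 (10.8% and 12.2% of all genes). The median of the 42 was 0.63 without the wild type array at 8 hours and 0.16 without the knockout array at 8 hours.

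Among the lipid-handling genes, Lipa was the one that rose. It encodes lysosomal acid lipase, which splits triglycerides and cholesteryl esters delivered to the lysosome. Lipa read 494, 1465, 2885 and 1377 in wild type and 525, 2398, 3785 and 5604 in knockout. Every treated array was above both controls, which themselves nearly coincided. Its log2 change was 1.88 ± 0.46 at 8 hours (adjusted p 0.0452), 2.70 at 3 days (0.06) and 2.45 at 6 days (0.0777). Leaving out the wild type control gave an 8-hour adjusted p of 0.0795 and leaving out that of the knockout 0.249, so the call is lost either way.

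Psap encodes prosaposin, the precursor of the saposins that help enzymes reach sphingolipids. It read 10479, 11129, 16757 and 9190 in wild type and 8268, 8802, 16848 and 20957 in knockout. By this brightest probe set, both genotypes were near control at 8 hours and higher at 3 days (0.85 ± 0.40, limma adjusted p 0.281). Its other probe sets had mean log2 changes of 0.05 and -0.64 at 8 hours, and of 0.46 and 0.63 at 3 days. The second of these was dim and read 530 on the wild type control and 528 on the wild type array at 3 days. Npc1, the membrane protein that exports cholesterol from lysosomes, read 1420, 2027, 1790 and 1106 in wild type and 945, 1527, 1993 and 2305 in knockout. Its partner Npc2, the soluble cholesterol carrier that is also a major epididymal secretory protein, read 21283 on the knockout control, above the 9622 to 16677 of the other arrays. That is the array with high epididymis markers, and their part in the value was not tested. Asah1, acid ceramidase, had a 3-day change of 0.62 ± 0.40, and Gm2a, the activator that presents gangliosides to β-hexosaminidase, one of 0.10 ± 0.17.

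Of the 5 membrane proteins, Scarb2 rose at 8 hours, with the lowest adjusted p of the 42 genes. Scarb2 encodes LIMP-2, the receptor that carries glucocerebrosidase to the lysosome. It read 1516, 5026, 3612 and 3051 in wild type and 1397, 3831, 2910 and 3117 in knockout. It was highest at 8 hours in both genotypes, and the 6 treated arrays did not overlap the controls. The log2 change was 1.59 ± 0.19 at 8 hours (adjusted p 0.00911), 1.16 at 3 days (0.0564) and 1.08 at 6 days (0.0772). The 8-hour adjusted p was 0.0458 with the wild type control left out and 0.082 with that of the knockout left out. At 6 days the 2 genotypes lay within 0.03 log2 units of each other.

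Laptm5, a lysosomal membrane protein of blood cells, read 1584, 3178, 5903 and 2124 in wild type and 1571, 3734, 7562 and 8981 in knockout. Its pattern was that of Ctss, with a 3-day change of 2.08 ± 0.51 (adjusted p 0.103). Cd63, a tetraspanin of late endosomes and lysosomes, read 8790, 16747, 11496 and 6860 in wild type and 13079, 19200, 14438 and 16687 in knockout, and was highest at 8 hours in both. Lamp1 and Lamp2, the most abundant proteins of the lysosomal membrane, had changes at the 3 times that lay between -0.24 and 0.20. A second probe set of Lamp2 read 3527, 3228, 5962 and 5066 in wild type and 3857, 3029, 5596 and 7200 in knockout, so its 3-day arrays were higher than its controls.

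**Figure D2:**
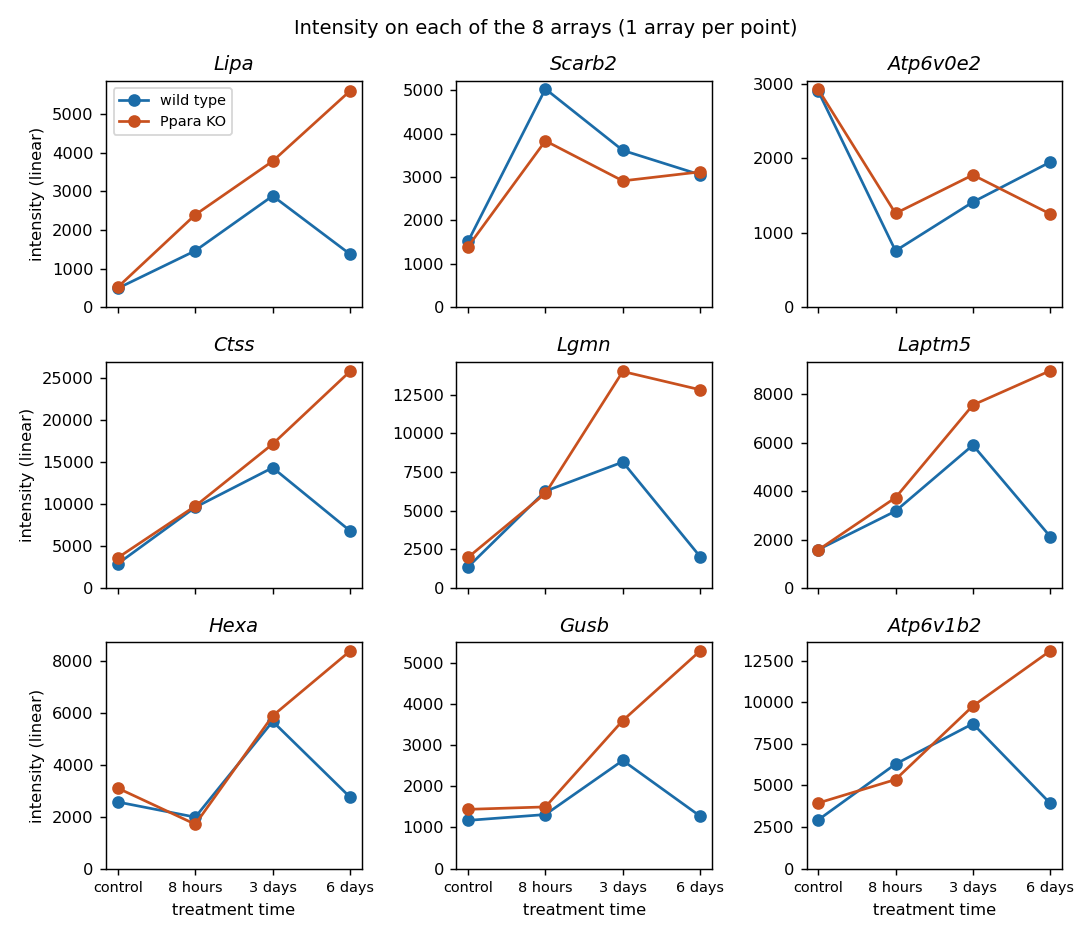
Intensity on a linear axis that starts at 0, for 9 lysosomal genes, by treatment time; each point is 1 array, blue for wild type and orange for Ppara knockout. Ctss, Lgmn, Laptm5, Lipa, Hexa, Gusb and Atp6v1b2 were lower at 6 days than at 3 days in wild type, and all of these but Lgmn were higher at 6 days than at 3 days in knockout, while Scarb2 was highest and Atp6v0e2 lowest or nearly lowest at 8 hours.

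The 15 proton pump genes had a median log2 change of 0.10 at 8 hours, 0.24 at 3 days and 0.27 at 6 days, with 10, 11 and 11 of 15 above 0. In the cytosolic V1 sector, which splits ATP, the 7 genes had medians of 0.09, 0.41 and 0.27. Atp6v1b2 encodes the B2 subunit, the B form found in most cells and strong in osteoclasts and macrophages. It read 2928, 6286, 8710 and 3924 in wild type and 3945, 5356, 9773 and 13088 in knockout. Its 8-hour and 3-day arrays lay above both controls, and the 3-day change was 1.44 ± 0.46 (adjusted p 0.155).

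Atp6v1a, the catalytic A subunit with a CLEAR core in its promoter, read 5502, 7709, 8986 and 6717 in wild type and 5174, 7194, 10203 and 12409 in knockout. All treated arrays were above both controls (3-day change 0.84 ± 0.28, adjusted p 0.17). Atp6v1d, a subunit of the rotor stalk, read 2371, 3100, 3255 and 3696 in wild type and 2391, 2811, 3079 and 3580 in knockout. It was higher at each later time in both genotypes and did not part by genotype at 6 days, where its change was 0.61 ± 0.17 (adjusted p 0.146). Atp6v1c1, Atp6v1e1, Atp6v1g1 and Atp6v1h, subunits of the stalks and of their regulation, had 3-day changes of 0.44, 0.22, -0.27 and -0.26.

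In the membrane V0 sector, which carries the protons, 1 gene fell at 8 hours and no gene rose. Atp6v0e2 encodes an isoform of the small e subunit. It read 2904, 759, 1413 and 1950 in wild type and 2929, 1261, 1777 and 1253 in knockout. All treated arrays lay below both controls, and the 8-hour change was -1.58 ± 0.33 (adjusted p 0.0316). Leaving out the wild type control gave an adjusted p of 0.117 and leaving out that of the knockout 0.16. The other isoform, Atp6v0e, which has a CLEAR core at its start, had changes of -0.20, -0.00 and 0.16.

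The isoforms of the proton-carrying a subunit also differed by their brightest probe sets. Atp6v0a1 read 1721, 2127, 2590 and 1468 in wild type and 1120, 2373, 2742 and 2909 in knockout, with a 3-day change of 0.94 ± 0.37 (adjusted p 0.216). Atp6v0a2 had a 3-day change of 0.24 ± 0.20 and was highest on the wild type array at 6 days, at 3188. Its other probe sets had mean log2 changes of 0.66 and -0.01 at 3 days, and of 0.95 and 0.47 at 6 days. The contrast between these isoforms therefore depends on the probe set. Atp6v0b, a proteolipid of the rotor ring, read 4699, 6187, 7481 and 7553 in wild type and 5596, 4891, 7934 and 9514 in knockout, and its change was 0.73 ± 0.22 at 6 days (adjusted p 0.178). Atp6v0d1, which couples the ring to the stalk, lay between 5591 and 6786 on all arrays. Of the accessory proteins, Atp6ap2, the prorenin receptor, read 1045, 1641, 1350 and 826 in wild type and 1032, 1709, 1562 and 2092 in knockout, and Atp6ap1 read 2808, 3443, 3456 and 2507 in wild type and 3699, 3845, 3915 and 4061 in knockout. Both were lower at 6 days than in the control in wild type, and at their highest at 6 days in knockout.

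The genotypes parted at 6 days. Between the control arrays the median knockout minus wild type difference of the 42 was 0.09 on the log2 scale, and 1 member, Ctse, was at least 2-fold higher and 0 lower (3.28% and 1.57% of all genes). At 8 hours the median was -0.05. At 3 days it was 0.17, with 37 of 42 higher in knockout, against 47.5% of all genes. At that time 0 were 2-fold higher and 0 lower (2.55% and 1.42% of all genes). At 6 days the median was 1.03, again with 37 of 42 higher, against 43.9% of all genes. Of the 42, 21 were at least 2-fold higher and 0 lower, against 9.33% and 5.76% of all genes. The widest gap was 2.66 for Lgmn, followed by 2.25 for Ctsc, 2.08 for Laptm5, 2.05 for Gusb and 2.03 for Lipa. The 5 members not higher in knockout were Gaa, Atp6v0a2, Atp6v0e2, Atp6v1d and Atp6v1h. The 6-day difference rests on 1 array of each genotype and has no replicate check.

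**Figure D3:**
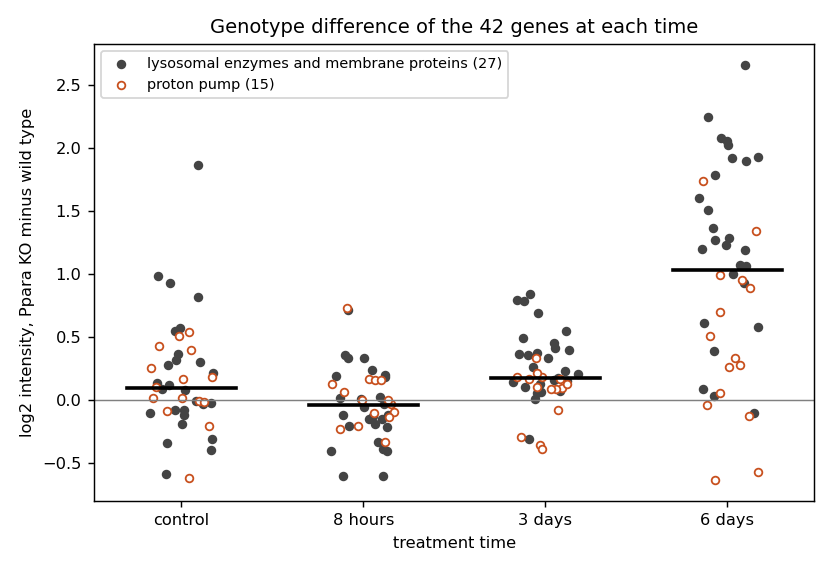
Log2 intensity on the knockout array minus the wild type array at each time; each dot is 1 gene, with the 27 listed lysosomal genes and the 15 proton pump genes drawn apart, and the bar is the median. The dots lie around 0 for the controls and at 8 hours. At 6 days 37 of 42 lie above 0, up to 2.66 for Lgmn, against 43.9% of all genes above 0.

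From 3 to 6 days most members read lower in wild type and somewhat higher in knockout. In wild type the median step from 3 to 6 days was -0.65, with 35 of 42 lower and 7 higher, where 49.2% of all genes were higher. Of the 42, 12 were at least 2-fold lower and 0 higher, against 3.75% and 2.02% of all genes. Those 12 were Ctsa, Ctsc, Ctsh, Ctsl, Ctss, Ctsz, Lgmn, Lipa, Laptm5, Atp6v1b2, Gusb and Hexa. The 7 members that did not read lower were Gm2a, Gaa, Atp6v0a2, Atp6v0b, Atp6v0e, Atp6v0e2 and Atp6v1d. In knockout the median step was 0.19, with 36 of 42 higher, against 47.6% of all genes. Of the 42, 0 were at least 2-fold higher or lower (0.441% of all genes higher and 0.424% lower). For 31 of the 42 the wild type array went down and the knockout array up, which 21.9% of all genes did. The knockout array at 6 days was the brightest of the 8 for 26 members. The share of all genes for which it was the brightest was not counted.

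With 1 array per group, the genotype gap at 6 days and the opposite steps from 3 to 6 days could not themselves be tested. The fits that follow average over genotypes, over times or over treated arrays, so their lack of calls does not answer for these differences. With limma 0 members rose and 0 fell from 3 to 6 days (0% of all genes each way). At an unadjusted p under 0.05, 0 members were higher and 0 lower (1.06% and 0.718% of all genes). For knockout against wild type over the 4 arrays of each, 0 members were higher and 0 lower (0% of all genes each way), with 5 higher and 0 lower at an unadjusted p under 0.05 (5.29% and 10.1% of all genes). The median difference was 0.32, with 36 of 42 above 0, against 48.5% of all genes. That median was 0.09 without either of the 6-day arrays. For the drug response in knockout against that in wild type, with all treated arrays as 1 class, 0 members passed (0% of all genes each way). At an unadjusted p under 0.05, 0 members were higher and 0 lower (4.26% and 5.91% of all genes).

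The additive fit takes the genotype gap at 6 days as spread, which bears on every other time. With the wild type array at 6 days left out, 9 members rose at 3 days: Ctss, Ctsz, Lgmn, Lipa, Laptm5, Scarb2, Atp6v1b2, Gusb and Hexa, with limma adjusted p from 0.0132 (Ctss and Lipa) to 0.0468 (Hexa), against 4.44% of all genes. Leaving out that array does not alter the 3-day changes themselves, which were 1.04 for Hexa and 1.001 for Ctsz. At 8 hours 5 members then rose, adding Ctss, Lgmn and Laptm5, against 8.73% of all genes. At 8 hours and 3 days the fit without the knockout array at 6 days gives the same values by construction. In either fit the remaining 6-day array is alone at its time and adds nothing to the other times. The match is therefore no second support.

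Markers of macrophages were also measured. The 15 measured macrophage markers had median log2 changes of 1.54, 2.29 and 1.25 at the 3 times, all 15 above 0 each time, and 2 of 15 rose at 8 hours (Mpeg1 and Cd14). Their summed intensity was 29852, 68264, 100178 and 36768 in wild type and 28000, 69715, 145045 and 162099 in knockout. The sum was thus highest at 3 days in wild type, near control there at 6 days, and highest at 6 days in knockout. On the control arrays 3 of 15 were at the floor in wild type and 4 in knockout, on the wild type array at 6 days 3 were, and on both 3-day arrays 0. Adgre1, encoding the macrophage marker F4/80, read 388, 851, 4336 and 1019 in wild type and 327, 1261, 6392 and 10264 in knockout. The part of macrophage RNA in the changes of the lysosomal genes was not tested.

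Lists of other cell types were read on the same arrays. The summed intensity of 12 adipocyte genes was 335348, 173760, 285982 and 304394 in wild type and 290111, 137892, 218968 and 217185 in knockout, lowest at 8 hours in both, when 8 of the 12 fell and Atp6v0e2 was low. The sum of 9 neutrophil markers was 3601, 35764, 8156 and 5616 in wild type and 19136, 45808, 7494 and 5058 in knockout, with 4 of 9 rising at 8 hours, when Scarb2, Cd63 and Ctsc were highest. Of the 19136 on the knockout control, 16051 came from 1 gene, Lcn2, on the array with high epididymis markers. Of 18 markers of endothelial, mesothelial, smooth muscle and fibroblast cells, 2 fell at 3 days and at 6 days, the mesothelial Upk3b and the smooth muscle Myh11, and 0 rose. Their median log2 change was -0.69 at 3 days, and on the wild type array at 3 days 10 of the 18 were at least 2-fold lower. Col1a1, a collagen gene of fibroblasts, had a 3-day change of 1.28 ± 0.42 (adjusted p 0.166). The part of these lists in the values of the lysosomal genes was not tested.

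**Figure D4:**
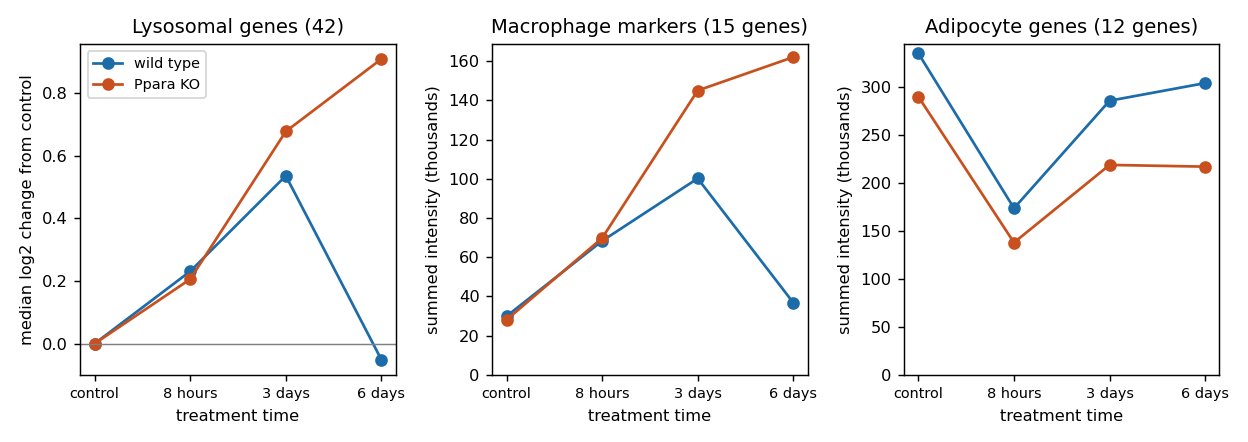
By treatment time and genotype, each point 1 array: the median log2 change of the 42 lysosomal genes against the control of the same genotype, the summed intensity of 15 macrophage markers and that of 12 adipocyte genes, each on a linear axis. The lysosomal median was 0.54 at 3 days and -0.05 at 6 days in wild type, and 0.68 and 0.91 in knockout, and the macrophage sum had the same order of arrays at those times.

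Other genes of the lysosome, from lists of the pathway, had medians near 0 at 3 days. Of 22 further measured hydrolases and their modifiers, 0 rose and 5 fell at 8 hours: Sumf1, Naglu, Ctsf, Acp5 and Ids. Their median change was -0.38 at 8 hours, 0.04 at 3 days and 0.12 at 6 days, against 0.19, 0.66 and 0.39 in the 42. From 8 hours to 3 days 20 of the 22 were above 0, with a median of 0.65. Ctsf, encoding cathepsin F, read 1701, 506, 830 and 1337 in wild type and 1731, 355, 750 and 903 in knockout, and fell by 2.02 on the log2 scale at 8 hours (adjusted p 0.00704). Acp5, the tartrate-resistant acid phosphatase, read 8478, 2144, 3469 and 7765 in wild type and 6951, 1629, 2589 and 3573 in knockout, with all 6 treated arrays lower than the control of their genotype.

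Of 22 further membrane and sorting genes, 1 rose at 8 hours (Litaf) and 3 fell (Laptm4b, Abca2 and Laptm4a), with medians of 0.01, 0.07 and 0.08 at the 3 times. The members of this list with the largest 3-day changes were Cd68, Tcirg1, Slc11a1 and Abca2. Cd68, the lysosomal glycoprotein used to stain macrophages, read 1167, 5593, 9676 and 2515 in wild type and 1737, 5387, 15308 and 18755 in knockout. Tcirg1, the a3 isoform of the proton pump that osteoclasts need and that the symbol rule left out, read 465, 1133, 1930 and 738 in wild type and 537, 847, 1759 and 3676 in knockout. Both had the course of Ctss and Laptm5, and neither passed the test at 3 days (adjusted p 0.0851 and 0.174). Abca2 had a 3-day change of -1.36 and Slc11a1, a metal transporter of phagosomes, one of 1.72. Of 7 listed transcription regulators of lysosomal genes, 5 were on the array and 3 were measured (Usf1, Usf2 and Zkscan3). Of these 3, 0 rose or fell at any time. The genes of TFEB and TFE3 were not among the 3.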

How the data were processed

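Per the deposited table, values are linear intensities given as whole numbers, 11.9% of them below 0. The authors had matched the arrays (median 320 on each); how, and how background and probes were treated, is not given in the sources used here. Values under 171, the 40th percentile of the pooled values, were set to 171 and log2 was taken. Of 12488 probe sets, 66 were array controls, 10833 had 1 symbol, 396 several and 1193 were not listed; 10817 symbols were updated by gene number through RefSeq (GRCm38.p6). Genes with at least 2 of 8 arrays above the floor were tested (6128), each by its brightest probe set. The fit of genotype plus time used limma 3.58.1 in R 4.3.3 with 3 residual degrees of freedom; the drug response by genotype left 2. The number of arrays limits precision. The script was tested on simulated data. Intensities are given for members past the threshold and for the 3 of each role with the largest mean change over the times; the other named members were added for contrast. The members and lists were chosen with earlier results of these data known. Alternatives were the floor, the filter, quantile normalization, the mean of a gene's probe sets, the trend and prior, and each array left out.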

Additional observations from a re-analysis of the deposited data

How the results depend on the processing

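With a floor at the 25th percentile, or no filter, 1 member rose at 8 hours (Scarb2) and 0 fell; Lipa stood at an adjusted p of 0.0687 and 0.185, and Atp6v0e2 at 0.0523 and 0.132. Under a robust prior with an intensity trend, 2 members rose at 3 days and 1 at 6 days. With the mean of all probe sets of a gene, the 8-hour median was 0.11. Leaving out each array in turn, between 0 and 5 members rose and between 0 and 1 fell at 8 hours, between 0 and 9 rose at 3 days, between 0 and 9 at 6 days, and between 0 and 2 from 8 hours to 3 days. The medians ranged from -0.0062 to 0.41 at 8 hours, from 0.44 to 0.81 at 3 days, from -0.09 to 0.97 at 6 days, from 0.16 to 0.63 from 8 hours to 3 days, from -0.68 to 0.22 from 3 to 6 days and from 0.09 to 0.42 for knockout against wild type. The median at 6 days and that from 3 to 6 days changed sign with which 6-day array was left out. Among these fits, calls at 6 days came only from the one without the wild type array at 6 days. There a lone knockout array is assumed to vary like the others, so those calls are not read as a result. Scarb2 lost its call without the wild type array at 8 hours (adjusted p 0.084), the knockout control (0.082) or the knockout array at 8 hours (0.0927). The cause of these moves was not tested. Over all genes 398 rose and 508 fell at 8 hours, 27 and 43 at 3 days and 14 and 37 at 6 days. The lower floor gave 278 and 323, 14 and 18, and 4 and 7 of 7250 genes, no filter 100 and 122 and then 0 of 8251, and the robust prior 464 and 573, 61 and 92, and 52 and 76. From 8 hours to 3 days 122 and 148 became 53 and 73 with the lower floor, 12 and 23 with no filter and 187 and 193 with the robust prior. With no filter the drug response differed by genotype for 57 genes up and 115 down, none of them a member. The drug response by genotype could not be fitted without either control. Added after seeing the data, a fit of the 6 treated arrays called 0 members between times or genotypes. No direction of a called member reversed. Each group held 1 array.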

Other observations

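Autophagy genes, whose products deliver a cell's own contents to the lysosome, had medians below 0 at every treatment time. Of 15 measured, 0 rose and 3 fell at 8 hours (Bnip3, Ulk2 and Map1lc3a), with median log2 changes of -0.29, -0.34 and -0.18 at 8 hours, 3 days and 6 days, and 0 passed at the later times. Bnip3, a mitophagy receptor, read 5195, 1182, 1692 and 2577 in wild type and 3778, 986, 2101 and 2151 in knockout, lower on all 6 treated arrays than on both controls. Sqstm1, encoding the autophagy adaptor p62, read 5018, 7444, 3609 and 3783 in wild type and 5454, 6729, 4532 and 4604 in knockout, and Gabarapl1 read 7025, 4941, 4392 and 4382 in wild type and 7527, 6305, 3876 and 4260 in knockout. Sqstm1 was named after its values were seen.

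Of the inhibitors of cathepsins and related proteases 3 were measured, and 0 passed the test at any time. Cstb, encoding cystatin B, which stays within cells, read 7963, 19738, 15678 and 8507 in wild type and 11140, 21523, 18465 and 22566 in knockout. Cst3, encoding the secreted cystatin C, read 28255, 16697, 21207 and 18322 in wild type and 28244, 16171, 25831 and 32581 in knockout. At 8 hours the first was higher and the second lower than control in both genotypes, with changes of 1.13 ± 0.33 and -0.78 ± 0.26 (limma adjusted p 0.0745 and 0.0967).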
